A study of Mus musculus with 48 samples.

Results

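Dbp, Tef, Hlf, Nfil3, Bhlhe40 and Bhlhe41 encode transcription factors that carry the output of the circadian clock. They were chosen by name, as 6 of the 47561 genes listed for the series, and were selected on their values across strain, injection and air. Differences along those 3 labels are therefore described here without a test, and tests were kept for sex and for the spread within groups. Lung RNA was sequenced from 48 adult mice in 16 groups of 3, each group being a combination of strain (C3H/HeN or C57Bl/6, both inbred), sex, injection and air. The sample labels name no C57Bl/6 substrain, which is given differently in the design text and in the study's methods. The injection was a single intraperitoneal dose of saline or of aurothioglucose (ATG, a gold drug and thioredoxin reductase inhibitor), the latter at 25 mg/kg. Room air or hyperoxia (over 95% oxygen) followed for 96 h, and every mouse was given ketamine and xylazine before its lung was taken. No genotype other than strain is labelled. The labels assign saline to 24 mice, whereas the design text of the series mentions ATG for all mice. Groups are named C3HM, C57BM, C3HF and C57BF for strain and sex. The labels give no time of day for the collection of the lungs, so time of day and group cannot be told apart.

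In the mammalian clock, the activators CLOCK and BMAL1 (the product of Arntl) bind E-boxes in the promoters of their own repressors, the Per and Cry genes, and of the nuclear receptors Nr1d1 and Nr1d2, which in turn repress Arntl. DBP, TEF and HLF are activators of the PAR bZIP family and bind D-boxes in output genes. NFIL3, also called E4BP4, is a bZIP repressor that binds the same D-boxes, and its gene is repressed by the product of Nr1d1. BHLHE40 and BHLHE41, also called DEC1 and DEC2, are bHLH repressors that bind E-boxes and oppose CLOCK and BMAL1. In the lung, as in other organs, these factors cycle over the day, and Nfil3 and Bhlhe40 are also known to be induced by cytokines, hypoxia and other stress.

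The E-box is the element through which CLOCK and BMAL1 act, so the promoters were searched for its core letters. RefSeq start sites on GRCm38.p6 were available for Dbp, Hlf, Nfil3, Bhlhe41 and Tef, the last with 2 starts, in a table of 32851 promoters of 300 bases each (250 before the start and 50 after). CACGTG, which reads the same on both strands, was found in 3 of these 6 promoters and in 7.15% of all promoters. The stretches around it are shown with CACGTG in capitals, as the places where these 3 promoters hold the letters.
Tef, first start (chr15:81802486-81802611, plus strand, 127 bases before the start): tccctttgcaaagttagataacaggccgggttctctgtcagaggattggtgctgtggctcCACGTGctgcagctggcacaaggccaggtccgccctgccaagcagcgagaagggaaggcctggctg
Tef, other start (chr15:81811216-81811341, plus strand, 138 bases before the start): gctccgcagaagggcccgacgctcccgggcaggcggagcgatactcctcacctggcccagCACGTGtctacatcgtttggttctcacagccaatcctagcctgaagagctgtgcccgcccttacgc
Bhlhe41 (chr6:145865508-145865633, minus strand, 153 bases before the start): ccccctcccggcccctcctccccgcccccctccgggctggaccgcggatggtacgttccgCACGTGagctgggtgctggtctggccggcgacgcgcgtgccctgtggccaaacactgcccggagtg

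In the Dbp, Hlf and Nfil3 windows the letters CACGTG were not present. The variant CACGTT, searched on both strands, was in 0 of the 6 promoters and in 4.68% of all promoters. The D-box letters TTATGTAA and TTACGTAA, on either strand, were in 0 of the 6 and in 0.938% and 0.119% of all promoters. AGGTCA, the core site of nuclear receptors such as NR1D1, was in 1 of the 6, that of Nfil3, and in 16.3% of all promoters. The 6 genes are protein coding and lie on GRCm38 at chromosome 7 from 45705088 to 45710203 (Dbp, plus strand), chromosome 15 from 81802421 to 81826863 (Tef, plus), chromosome 11 from 90336536 to 90390895 (Hlf, minus), chromosome 13 from 52967209 to 52981073 (Nfil3, minus), and chromosome 6 from 108660629 to 108666925 (Bhlhe40, plus) and from 145858243 to 145865558 (Bhlhe41, minus). At most 0.148% of the 30-base sequences of any of the 6 occur, in the same orientation, in transcripts of other genes. Exons of Dbp overlap those of Sphk2 on the other strand, and exons of Tef, Bhlhe40 and Bhlhe41 overlap those of Gm17597, 0610040F04Rik and Gm43909. Whether reads were assigned by strand is not given in the sources used here, so reads of such partners cannot be told apart.

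Levels are FPKM, in which fragments are scaled by transcript length and by the mapped fragments of the library, so they can be compared between genes. The summed FPKM was 510933 to 748290 per library, and the absolute depth is unknown. The relative depth, approximated from the steps of low values, was 0.771 to 1.25 of the median. The nearest library by correlation was of the same group for 24 of 48 mice, and the mean correlation of a mouse with its own group was lowest in C3HM of saline and room air and in C57BM 19 of saline hyperoxia (range over mice 0.943 to 0.977). All 4216 genes of chromosomes X, Y and M had an FPKM of 0 throughout, so the labelled sex could not be checked. Lung epithelial markers were above 0 in every lung for 6 of 6 genes. In hyperoxia their summed FPKM was 17857 to 59847, against 81484 to 257606 in room air, while the summed neutrophil markers were 154 to 6195 against 59.0 to 3596 and the summed macrophage markers 118 to 1834 against 94.0 to 627. In bulk lung, fewer cells of a type and less RNA per cell cannot be told apart, and the part of cell composition in the values of the 6 genes was not tested.

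Of the PAR bZIP activators, Dbp had the widest range, from 2.43 to 153 FPKM over the 48 lungs. In saline mice in room air it was 94.8, 97.4 and 112 in C3HF, 13.8, 14.6 and 24.3 in C57BF, 5.99, 13.5 and 14.6 in C3HM and 3.02, 4.33 and 6.13 in C57BM. The 3 C3HF lungs stood above all other saline lungs in room air, and C57BF overlapped C3HM. In saline hyperoxia Dbp was 9.95, 19.2 and 37.8 in C3HF, 9.02, 9.18 and 10.8 in C57BF, 7.72, 12.4 and 15.8 in C3HM and 4.40, 9.46 and 11.3 in C57BM. With ATG in room air it reached 108, 132 and 133 in C3HF and 128, 139.9 and 153 in C57BF, while C3HM had 8.86, 9.80 and 13.4 and C57BM 2.43, 2.74 and 10.6. The female groups given ATG thus overlapped at a high level in room air, above every male. With ATG in hyperoxia the values were 28.9, 30.8 and 42.2 in C3HF, 7.40, 19.7 and 23.7 in C57BF, 4.00, 8.13 and 12.4 in C3HM and 12.9, 14.7 and 21.6 in C57BM. When the 16 group means of Dbp were put in order, 14 of the 15 neighbouring pairs of groups overlapped, and the only gap was between the 3 high female groups in room air (means of 102 to 140.3) and all the rest (means of 4.49 to 34.0).

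**Figure D1:**
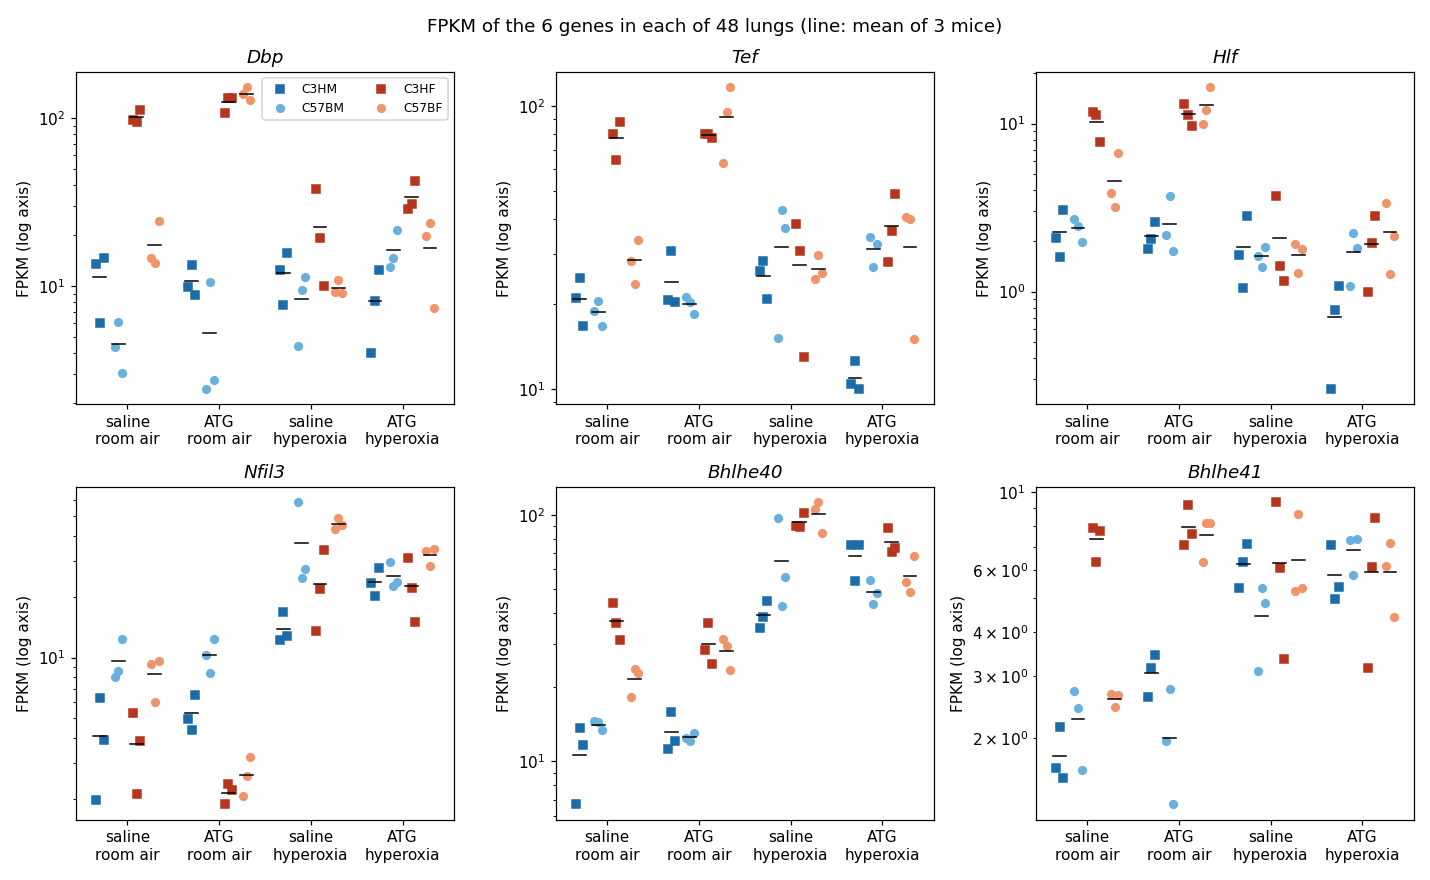
Each point is the FPKM of 1 lung on a log axis, for the 6 genes, by injection and air (horizontal axis) and by strain and sex (colour and shape), and the black line is the mean of 3 mice. C3HF in room air and C57BF given ATG in room air stand high for Dbp, Tef and Hlf, and both hyperoxia conditions stand high for Nfil3 and Bhlhe40. For Bhlhe41 the same female groups have the highest means but overlap with hyperoxia groups.

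Tef was less variable than Dbp, at 9.97 to 117 FPKM. Its room air values in saline mice were 64.4, 79.6 and 87.8 in C3HF, 23.6, 28.4 and 33.5 in C57BF, 16.7, 21.0 and 24.7 in C3HM and 16.7, 18.9 and 20.4 in C57BM. As for Dbp, C3HF stood apart from the other saline groups, and C57BF joined it with ATG (63.0, 95.2 and 117). In saline hyperoxia Tef was 13.0, 30.7 and 38.5 in C3HF, 24.4, 25.7 and 29.7 in C57BF, 20.8, 26.1 and 28.4 in C3HM and 15.1, 37.3 and 42.8 in C57BM, and these 4 groups overlapped. With ATG in hyperoxia C3HM had the lowest Tef of all groups, 9.97, 10.4 and 12.5, below each of the other 3 groups of that condition, which were between 15.0 and 48.9.

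Hlf was the lowest of the 3 activators per length, at 0.262 to 16.5 FPKM. In saline room air it was 7.77, 11.3 and 11.7 in C3HF and 3.20, 3.88 and 6.64 in C57BF, and 1.60 to 3.07 in the 6 males. In saline hyperoxia all 12 lungs were between 1.05 and 3.68, and males and females overlapped. With ATG in room air C3HF had 9.66, 11.2 and 13.2 and C57BF 9.93, 12.1 and 16.5, against 1.74 to 3.69 in males, and with ATG in hyperoxia all 12 lungs were between 0.262 and 3.38.

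Nfil3, the repressor at the same D-boxes, had its highest values in hyperoxia. In saline room air it was 1.98, 3.93 and 6.31 in C3HM, 2.11, 3.87 and 5.29 in C3HF, 8.05, 8.55 and 12.4 in C57BM and 6.01, 9.34 and 9.59 in C57BF. In saline hyperoxia it was 12.2, 12.8 and 16.7 in C3HM, 13.5, 21.8 and 34.1 in C3HF, 24.9, 27.4 and 58.5 in C57BM and 43.4, 45.0 and 49 in C57BF. Every group was above its own room air group, and over all saline mice the 12.2 of a C3HM in hyperoxia lay just under the 12.4 of a C57BM in room air. With ATG, room air values were 1.88 to 3.21 in the 6 females and 4.38 to 12.4 in the 6 males, and all 12 hyperoxia values (15.0 to 34.4) were higher.

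Bhlhe40 was the most abundant of the 6 in hyperoxia, at 34.8 to 112 FPKM with saline and 43.3 to 88.7 with ATG. In saline room air it was 6.69, 11.6 and 13.7 in C3HM, 13.4, 14.4 and 14.6 in C57BM, 31.1, 36.3 and 43.9 in C3HF and 18.2, 22.8 and 23.8 in C57BF, so all 6 females were above all 6 males. In saline hyperoxia it was 34.8, 38.6 and 44.5 in C3HM, 42.7, 56.2 and 96.6 in C57BM, 89.6, 90.3 and 101 in C3HF and 84.4, 105 and 112 in C57BF. The highest C57BM value, 96.6, was that of C57BM 19 and lay within the female range. With ATG in room air Bhlhe40 was 11.3 to 15.9 in males and 23.5 to 36.3 in females.

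Bhlhe41, its close relative, had the narrowest range of the 6, at 1.30 to 9.36 FPKM. In saline room air the 3 C3HF lungs (6.35, 7.78 and 7.90) stood above the other 9, in which Bhlhe41 was 1.55, 1.65 and 2.16 in C3HM, 1.63, 2.45 and 2.72 in C57BM and 2.45, 2.65 and 2.68 in C57BF. In saline hyperoxia the 4 groups overlapped, between 3.11 and 9.36. With ATG in room air the 6 females were at 6.33 to 9.21 and the 6 males at 1.30 to 3.44.

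Which of these genes differed between room air and hyperoxia was asked with limma fits of log2(FPKM + 1), in which the difference is averaged over the groups of strain and sex and is smaller than the fold change of FPKM for low genes. In saline mice the difference of hyperoxia minus room air was 2.01 for Nfil3 (standard error 0.18), 1.84 for Bhlhe40 (0.12) and 0.71 for Bhlhe41 (0.13). It was -0.89 for Hlf (0.14), -0.56 for Dbp (0.20) and -0.20 for Tef (0.16). Without overlap between the 12 saline lungs in room air and the 12 in hyperoxia were 0 of the 6 genes. Among all 16321 genes tested, 5.61% were apart with higher values and 2.13% with lower values in hyperoxia. In ATG mice the differences were 2.31 for Nfil3 (0.10), 1.63 for Bhlhe40 (0.08), 0.34 for Bhlhe41 (0.12), -1.38 for Hlf (0.14), -0.93 for Dbp (0.21) and -0.77 for Tef (0.14). Nfil3 and Bhlhe40 were apart there, both higher in hyperoxia, and no member was apart with lower values, beside 8.82% of all genes apart with higher and 4.05% apart with lower values. The saline and ATG comparisons share no mice. The members were chosen on these values, so nothing is read from the counts.

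For Dbp the averages joined unlike values in the sexes. In saline mice its difference, hyperoxia minus room air, was -2.32 in C3HF (standard error 0.53) and -0.76 in C57BF (0.26), each without overlap, and 0.10 in C3HM (0.46) and 0.73 in C57BM (0.43), both with overlap. With ATG the differences of Dbp were -1.85 in C3HF (0.19) and -3.11 in C57BF (0.49), and -0.44 in C3HM (0.45) and 1.68 in C57BM (0.60). Only the C57BM groups given ATG were apart with higher Dbp in hyperoxia, from 2.43 to 10.6 in room air to 12.9 to 21.6. For Tef the saline differences were -1.58 in C3HF (0.47), -0.09 in C57BF (0.16), 0.26 in C3HM (0.20) and 0.61 in C57BM (0.46). Hlf had a lower mean in hyperoxia in all 8 pairs of groups, with differences from -2.12 to -0.22. Nfil3 and Bhlhe40 were higher in hyperoxia without overlap in all 8 pairs, by 1.21 to 3.20 for Nfil3 and by 0.98 to 2.29 for Bhlhe40. Bhlhe41 was higher without overlap in the 4 male pairs and in C57BF given saline, and its difference in the other 3 female pairs was between -0.45 and -0.28, with overlap. Arntl, whose product activates through E-boxes, was low in the same female groups in which Dbp was high: 0.643 to 0.963 FPKM in C3HF with saline in room air, 0.359 to 0.474 in C3HF and 1.06 to 1.40 in C57BF with ATG in room air, against 1.78 to 12.1 in every other group. The part of collection time in these values was not tested.

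**Figure D2:**
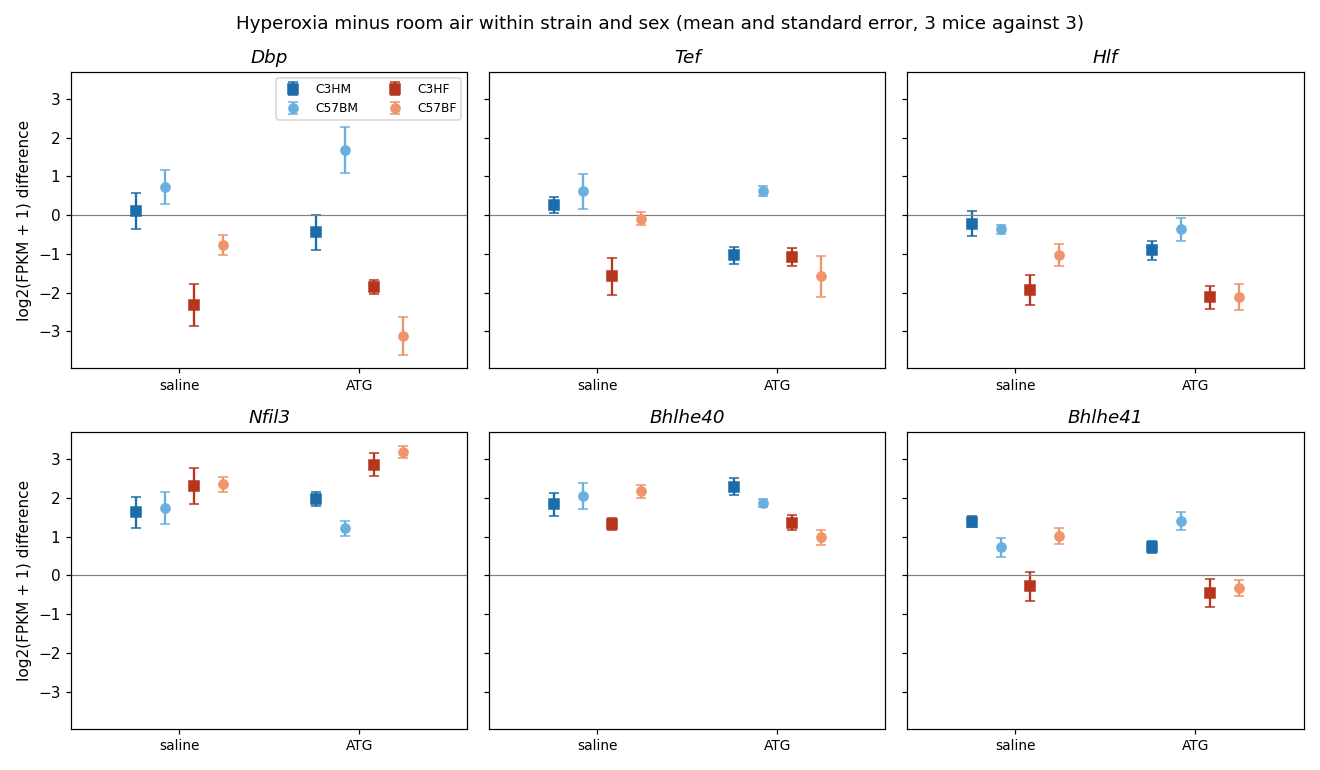
Each point is the difference of mean log2(FPKM + 1) between 3 mice in hyperoxia and 3 in room air of 1 strain and sex, with its standard error, for saline and ATG mice. Nfil3 and Bhlhe40 are above 0 in all 8 pairs, and Dbp and Hlf are furthest below 0 in females.

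For ATG against saline in room air, the average difference was 0.81 for Dbp (standard error 0.18), 0.48 for Tef (0.10), 0.44 for Bhlhe41 (0.09), 0.37 for Hlf (0.12), 0.05 for Bhlhe40 (0.10) and -0.35 for Nfil3 (0.14). Among the 4 pairs of groups in room air, the difference was largest in C57BF for each of the 6 genes. There Dbp was 2.97 higher with ATG (0.26), Tef 1.62 (0.30), Hlf 1.34 (0.33) and Bhlhe41 1.25 (0.11) higher, and Nfil3 had a difference of -1.35 (0.23), all without overlap. Bhlhe41 was also apart in C3HM, at 0.55 (0.13). In the other 3 pairs of groups in room air the Dbp difference was between -0.02 and 0.28, with overlap in each. In the same C57BF groups Arntl was lower with ATG, at 1.06, 1.13 and 1.40 against 5.83, 7.85 and 9.02 with saline. Per3, a clock repressor gene, was higher with ATG, at 7.73, 11.7 and 12.1 against 1.98, 3.24 and 4.02. Over all room air mice, 0 of the 6 genes were apart between saline and ATG, and 0.00616% of all genes tested were. In hyperoxia the ATG minus saline differences of the 6 genes were between -0.16 (Bhlhe40) and 0.44 (Dbp), and 0 genes were apart among the 6 and among all genes tested (0%). Within strain and sex, groups were apart for some genes, for example Tef in C3HM, which had a difference of -1.12 with ATG in hyperoxia (0.16), and Bhlhe40 in C57BF, with -0.82 (0.19).

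Between the strains, C3H minus C57B, the largest difference in saline room air was 1.82 for Dbp (standard error 0.22), followed by -1.07 for Nfil3 (0.24) and 0.77 for Tef (0.13). Bhlhe41 had 0.49 (0.13), Hlf 0.48 (0.18) and Bhlhe40 0.16 (0.16). In saline hyperoxia the Nfil3 difference was -1.15 (0.24), and Dbp had 0.72 (0.30), and with ATG the values for Nfil3 were -0.52 (0.13) in room air and -0.31 (0.15) in hyperoxia. Nfil3 was thus lower in C3H on average in each of the 4 conditions. The strains overlapped for all 6 genes in every condition, beside 5.98% of all genes apart in saline room air, 11.3% in saline hyperoxia, 8.06% in ATG room air and 12.6% in ATG hyperoxia.

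Sex was not used to choose the genes, and it was tested. The same lungs were used, and the high female groups in room air also enter the differences by strain, injection and air. The sex tests, and the interaction of sex with air, are therefore not fully independent of that choice. Collection time is not labelled and cannot be told apart from sex in these tests, whose standard errors hold only the spread within groups. All males also have lower mouse numbers than all females. In saline mice in room air, 5 of the 6 genes were lower in males than females at a limma adjusted p-value under 0.05, beside 0.669% of all 15546 genes tested. That share rests on 104 genes, a count that was 20 to 3640 with 1 mouse left out (3640 without C3HM 2) and 2057 when all 48 mice were fitted together. The male minus female difference was -2.44 for Dbp (standard error 0.22, limma adjusted p = 0.00113), -1.21 for Tef (0.13, adjusted p = 0.00349), -1.24 for Hlf (0.18, adjusted p = 0.0137), -1.16 for Bhlhe40 (0.16, adjusted p = 0.0123) and -0.87 for Bhlhe41 (0.13, adjusted p = 0.0138). Nfil3 had 0.13 (0.24, limma adjusted p = 0.769) and overlapped between the sexes. Hlf and Bhlhe40 were apart, with all 6 males below all 6 females, beside 1.73% of all genes apart in either direction, and the other 3 overlapped where C57BF reached down to the males. In C3H the differences of these 5 genes were between -3.13 (Dbp) and -1.58 (Bhlhe41), and in C57B between -1.75 (Dbp) and -0.15 (Bhlhe41). Tested within C3H, all 5 passed in limma, beside 0.695% of all genes. Within C57B limma called 0 of the 6 genes, beside 0% of all genes, and at an unadjusted p-value under 0.05 it called 4 of the 6 and 1733 of 15546 genes (Dbp had an adjusted p of 0.133). Whether the strains differed in this was not tested. The median of all genes tested was -0.12, and 37 genes were higher and 67 lower in males, which became 53 and 42 after quantile normalization and 37 and 38 after median ratio scaling, while each of the 5 genes remained lower and past the threshold under both. Without C3HF 25, 3 of the genes passed, with adjusted p = 0.0586 for Hlf and 0.0668 for Bhlhe41 in limma. Without C3HM 1 and C3HM 3, which had the highest levels of the ribosomal RNA gene Rn18s-rs5 among saline mice in room air (25895 and 20766 FPKM), the limma adjusted p of Bhlhe41 was 0.0823 and the other 4 passed.

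**Figure D3:**
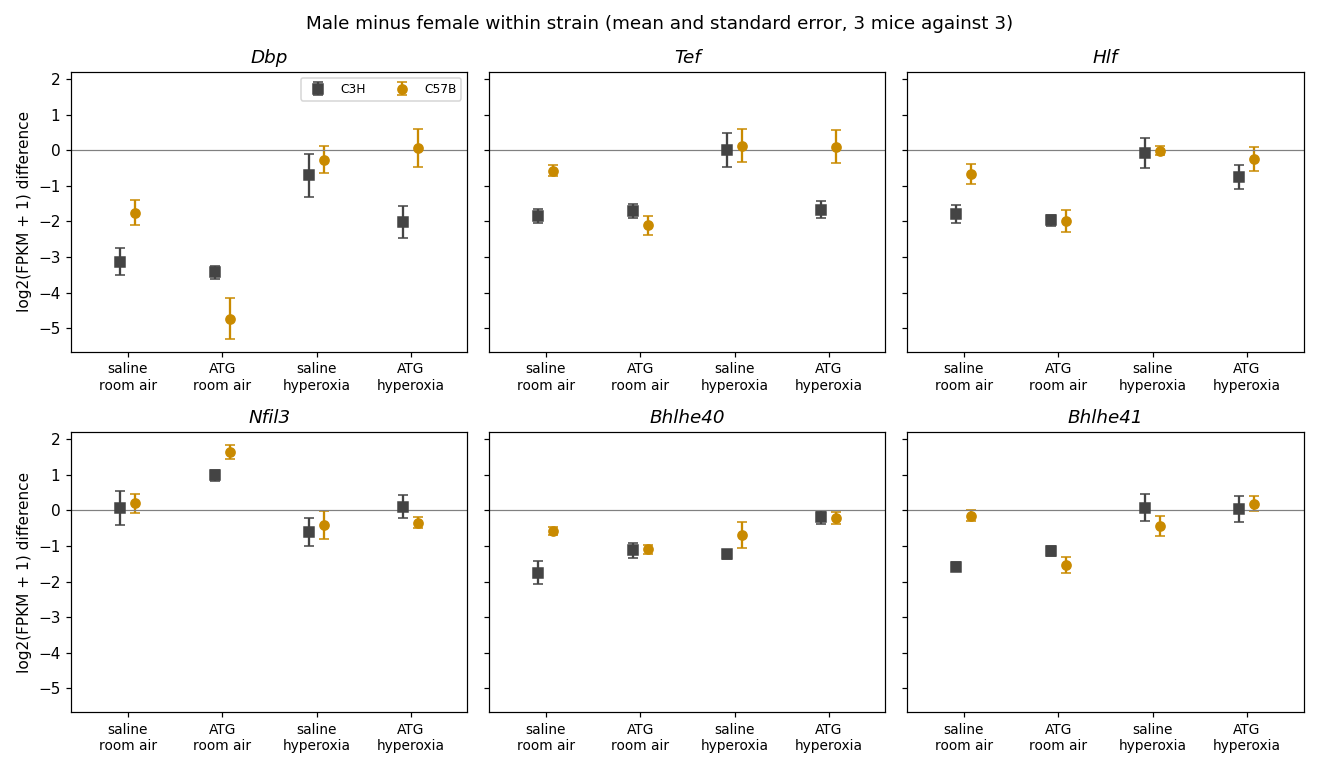
Each point is the male minus female difference of mean log2(FPKM + 1) in 1 strain, 3 mice against 3, with its standard error, in the 4 conditions. Dbp, Tef and Hlf lie below 0 in both strains in room air, and in saline hyperoxia Dbp is at -0.71 in C3H and -0.27 in C57B.

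In saline hyperoxia 0 of the 6 genes passed a limma adjusted p-value under 0.05 between the sexes, beside 0.0266% of all genes tested. Bhlhe40 came nearest, at -0.97 (standard error 0.17, limma adjusted p = 0.138), and within C3H the males were below the females without overlap, at -1.24 (0.12). Without C57BM 19 it was -1.13 (limma adjusted p = 0.00679), where 428 of all 14981 genes passed. With all 48 mice in 1 fit its limma adjusted p was 0.00135, where 389 of 15046 genes passed. Dbp was at -0.49 (0.30, limma adjusted p = 0.469), with 4.40 to 15.8 FPKM in males and 9.02 to 37.8 in females. At an unadjusted p-value under 0.05, limma called 1 of the 6 genes, Bhlhe40, and 2078 of 15046 genes tested. Whether the sexes differed in their response to hyperoxia was tested with the interaction, the hyperoxia difference of males minus that of females. It was 1.95 for Dbp (0.40, limma adjusted p = 0.102), 1.27 for Tef (0.33, adjusted p = 0.130) and 1.19 for Hlf (0.29, adjusted p = 0.112), so that 0 of the 6 passed, beside 0.0368% of all genes, for which the median interaction was 0.14. At an unadjusted p-value under 0.05, 4 of the 6 passed in limma, the other being Bhlhe41 at 0.69 (0.25, adjusted p = 0.190). Dbp, Tef and Hlf passed when all 48 mice shared 1 estimate of the spread, with limma adjusted p = 0.0180, 0.0340 and 0.0292. They also passed when C3HM 2 was left out (adjusted p = 0.0174, 0.0293 and 0.0325) or C57BM 19 (0.0141, 0.0145 and 0.0322), and without C3HF 31 Dbp and Hlf passed (0.0184 and 0.0463). Many more of all genes passed in most of these settings. There were 345 of 16321 with all 48 mice, 1270 of 16279 without C3HM 2 and 1051 of 16286 without C57BM 19. Without C3HF 31 there were 16 of 16275, against 6 of 16321 in the main fit.

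Over all 48 lungs, with the sexes compared within strain, injection and air, the same 5 genes were lower in males, beside 12.4% of 16994 genes tested. Dbp was at -2.0 (standard error 0.15, limma adjusted p = 7.89e-12), Bhlhe40 at -0.86 (0.07, adjusted p = 4.12e-10), Hlf at -0.94 (0.10, adjusted p = 7.37e-08), Tef at -0.96 (0.11, adjusted p = 3.27e-07) and Bhlhe41 at -0.57 (0.09, adjusted p = 4.83e-05). Nfil3 was at 0.20 (0.11, limma adjusted p = 0.217). This comparison contains the saline mice above and is not independent of them, and collection time and sex cannot be told apart in it either. Its averages joined unlike conditions. In hyperoxia the Bhlhe41 difference was 0.08 in C3H and -0.44 in C57B with saline, and 0.05 and 0.19 with ATG, all with overlap. Hlf also overlapped between the sexes within both strains in both hyperoxia conditions. In hyperoxia the Tef difference was -0.006 in C3H and 0.13 in C57B with saline, and 0.10 in C57B with ATG, each with overlap. Dbp overlapped in both strains in saline hyperoxia, and in C57B with ATG in hyperoxia, at 0.06. In ATG mice in room air, all 6 males were below all 6 females for 5 of the genes and above them for Nfil3, beside 1.33% of all genes apart in either direction. There the male minus female difference of Dbp was -3.43 in C3H (0.19) and -4.73 in C57B (0.57), and that of Nfil3 was 0.99 (0.16) and 1.64 (0.20). In ATG hyperoxia the 6 males and 6 females overlapped for each of the 6 genes, beside 0.192% of all genes apart, and within C3H Dbp and Tef were apart, at -2.02 (0.45) and -1.67 (0.24). In saline room air the sexes overlapped for Arntl with the strains together, at 1.78 to 10.4 FPKM in males and 0.643 to 9.02 in females. Within C3H all females were below all males for Arntl, and within C57B the sexes overlapped. The summed markers of red blood cells did not overlap, at 12604 to 58484 in males and 2475 to 11563 in females, and of the 3 markers Alas2 was listed at 0 in all lungs. Rn18s-rs5 did not overlap either, at 7495 to 25895 FPKM in males and 4400.4 to 6266 in females. Their part in the sex differences was not tested.

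How the genes moved together from mouse to mouse was measured within groups, as deviations of log2(FPKM + 1) from the mean of each mouse's own group of 3. This does not use the differences between groups. Pearson and Spearman correlations over 48 mice were tested by permuting mice within groups (100000 permutations, two-sided), with adjustment over 33 pairs, of which 15 were pairs of the 6 genes. Of these 15, 6 passed, 5 with a positive correlation and 1, Dbp with Nfil3, with a negative correlation. Tef and Bhlhe41 had the highest r, 0.72 (permutation p = 4.00e-05, adjusted p = 0.00132; rho = 0.62, p = 0.000140, adjusted p = 0.00379). Without the 2 mice farthest out in Tef, r was 0.70, and it was 0.54 within room air and 0.77 within hyperoxia. Dbp and Nfil3, the activator and the repressor of D-boxes, had r = -0.55 (permutation p = 0.00127, adjusted p = 0.00838; rho = -0.52, p = 0.00274, adjusted p = 0.0151), -0.57 without the 2 farthest mice, -0.41 in room air and -0.66 in hyperoxia.

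Dbp also went with Hlf (r = 0.56, permutation p = 0.00346, adjusted p = 0.0163; rho = 0.50, p = 0.00587, adjusted p = 0.0277), with r = 0.56 in each of room air and hyperoxia and without the 2 farthest mice. For Dbp and Tef r was 0.54 (permutation p = 0.00806, adjusted p = 0.0296; rho = 0.45, p = 0.0126, adjusted p = 0.0450) and 0.52 without the 2 farthest mice. It was 0.11 in room air and 0.73 in hyperoxia, and the difference between these was not tested. Dbp and Bhlhe41 had r = 0.52 (permutation p = 0.00591, adjusted p = 0.0244; rho = 0.44, p = 0.0136, adjusted p = 0.0450), with 0.46 without the 2 farthest mice, 0.38 in room air and 0.60 in hyperoxia. Nfil3 and Bhlhe40 had r = 0.53 (permutation p = 0.0117, adjusted p = 0.0352), but rho was 0.37 (p = 0.0370, adjusted p = 0.0939) and r without C3HM 1 and C57BM 19 was 0.36, so this relation rests on those mice. It was 0.33 in room air and 0.69 in hyperoxia. Tef and Hlf, both of the PAR bZIP family, had r = 0.22 (permutation p = 0.323, adjusted p = 0.394; rho = 0.11, p = 0.539, adjusted p = 0.636).

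Of the 18 pairs with the clock genes Arntl, Nr1d1 and Per3, 7 passed. Nr1d1, the nuclear receptor gene driven by E-boxes, had r = 0.68 with Dbp (permutation p = 0.000310, adjusted p = 0.00256; rho = 0.68, p = 0.000230, adjusted p = 0.00379), which was 0.61 without the 2 farthest mice, 0.73 in room air and 0.74 in hyperoxia. With Nfil3, which its product represses, Nr1d1 had r = -0.52 (permutation p = 0.00201, adjusted p = 0.0111; rho = -0.55, p = 0.00179, adjusted p = 0.0118), -0.52 without the 2 farthest mice, -0.52 in room air and -0.60 in hyperoxia. Per3 had r = 0.64 with Tef (permutation p = 0.000200, adjusted p = 0.00220; rho = 0.58, p = 0.000510, adjusted p = 0.00421), 0.63 without the 2 farthest mice, 0.49 in room air and 0.75 in hyperoxia. Per3 and Bhlhe41 had r = 0.61 (permutation p = 0.000120, adjusted p = 0.00198; rho = 0.56, p = 0.000490, adjusted p = 0.00421), 0.57 without the 2 farthest mice, 0.42 in room air and 0.74 in hyperoxia. The other 3 that passed were Dbp with Per3 (r = 0.46, adjusted p = 0.0316; rho = 0.43, adjusted p = 0.0450, permutation tests), Hlf with Nr1d1 (r = 0.41, adjusted p = 0.0398; rho = 0.39, adjusted p = 0.0793) and Bhlhe40 with Per3 (r = -0.43, adjusted p = 0.0408; rho = -0.40, adjusted p = 0.0793). Without the 2 farthest mice r was 0.45, 0.36 and -0.35. For Dbp with Per3 r was 0.14 in room air and 0.70 in hyperoxia. Arntl passed with none of the 6 genes in these permutation tests, nor at an unadjusted p-value under 0.05, and its correlation with Dbp was -0.66 in room air and 0.37 in hyperoxia.

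**Figure D4:**
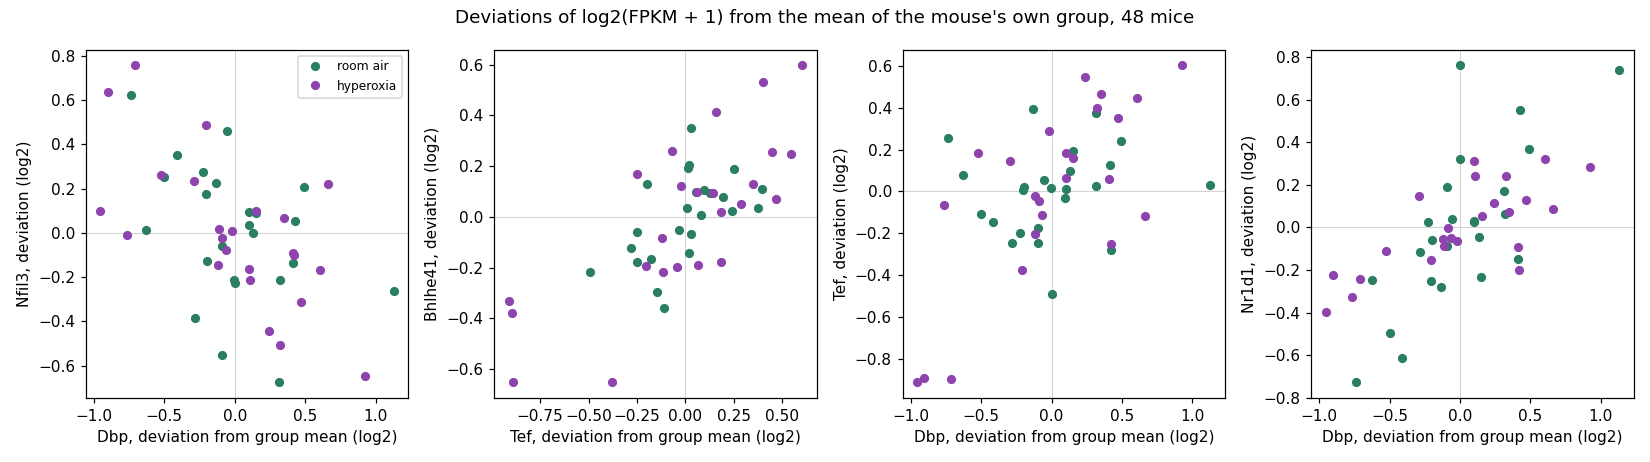
Each point is 1 of 48 mice, placed by the deviation of its log2(FPKM + 1) from the mean of its group for 2 genes, in room air or hyperoxia. Nfil3 falls with Dbp (r = -0.55), Bhlhe41 rises with Tef (r = 0.72), Tef rises with Dbp (r = 0.54 over all mice, 0.11 in room air and 0.73 in hyperoxia) and Nr1d1 rises with Dbp (r = 0.68).

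The genes most like each member over all 48 lungs, among 16994 genes, were found by Pearson's r of log2(FPKM + 1), as a description in which the points share strain, sex, injection and air. For Dbp they were Sphk2 (0.93), whose exons overlap Dbp, the clock nuclear receptor gene Nr1d2 (0.89) and Per3 (0.88). For Tef they were Per3 (0.89), the clock repressor gene Cry2 (0.88) and Dbp (0.88). For Hlf they were Npy1r (0.86), a neuropeptide Y receptor gene, Per3 (0.85) and Angptl2 (0.83). Nfil3 was nearest to Adm (0.95), the adrenomedullin gene, Sfn (0.94) and Actr3 (0.93), an actin nucleation gene. Bhlhe40 was nearest to Trib1 (0.93), Slc25a25 (0.92) and Stk40 (0.91), and Bhlhe41 to Nr1d2 (0.79), Spint1 (0.75) and Vps13a (0.75).

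Other clock and related genes were tested between hyperoxia and room air in the 24 saline mice. They were in 5 lists chosen with earlier results of these data known. The p-values and counts of these lists are therefore a description and not independent support. Of 45 listed genes 41 were tested, of which 19 rose, 7 fell and 15 did not pass, with a median difference of 0.18 beside 0.01 for all genes tested. Among all genes tested 31.8% rose and 28.3% fell at a limma adjusted p-value under 0.05. In the list of the negative arm, which holds the Per and Cry genes, Ciart, Tipin and Timeless, 5 of 8 rose and 2 fell. Per1 rose by 1.55 (standard error 0.15, limma adjusted p = 3.41e-08), Cry1 by 1.07 (0.10, adjusted p = 2.41e-08), Ciart by 0.67 (0.19, adjusted p = 0.00505) and Per2 by 0.46 (0.11, adjusted p = 0.00119), while Per3 was at -0.80 (0.17, adjusted p = 0.000389). For Per1 and Per2 these averages joined unlike groups, since in C3HF Per2 was 7.37 to 9.27 FPKM in room air and 3.09 to 4.53 in hyperoxia, and Per1 was 24.9 to 32.9 and 18.2 to 27.3, while the means of the other 3 groups were higher in hyperoxia. In the positive arm and its stabilising loop 3 of 7 rose and 0 fell, namely Clock (0.61, limma adjusted p = 1.14e-05), Arntl (0.46, adjusted p = 0.00847) and Nr1d2 (0.33, adjusted p = 0.00683). Nr1d2 in C3HF was 32.8 to 43.9 FPKM in room air and 16.5 to 26.3 in hyperoxia, against higher means in hyperoxia in the other 3 groups. Arntl had higher means in hyperoxia in C3HM and C3HF (0.643 to 0.963 FPKM in room air and 3.47 to 4.18 in hyperoxia in C3HF), overlapped in C57BM (7.42 to 10.4 and 7.54 to 12.1) and had a lower mean in hyperoxia in C57BF (5.83 to 9.02 and 4.87 to 6.37). Nr1d1 was at 0.27 (0.15, limma adjusted p = 0.130). Without C3HM 1 and C3HM 3 Arntl was at 0.22 (limma adjusted p = 0.0677) and Nr1d1 at 0.45 (adjusted p = 0.0132), and after quantile normalization Nr1d2 was at 0.23 (adjusted p = 0.0587).

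Of the 5 clock kinases and ubiquitin ligases tested, 3 rose and 1, Btrc, fell (-0.48, limma adjusted p = 4.24e-05). Among 12 rhythmic output genes and genes bound by PAR bZIP proteins, 4 rose and 0 fell, with a median of 0.01. Those that rose were Fkbp5 (3.29), also a glucocorticoid target, the tetraspanin gene Tspan4 (1.70), the mitotic kinase gene Wee1 (1.44) and Nampt (0.50), an enzyme gene of NAD synthesis. Usp2 and Por, which are output genes of the clock in liver, were at -0.12 (limma adjusted p = 0.451) and 0.18 (adjusted p = 0.375). Of 9 other bZIP and bHLH relatives 4 rose and 4 fell, among them Cebpd (1.77, limma adjusted p = 3.77e-08), a bZIP gene of the acute phase response, and Hey1 (-1.20, adjusted p = 2.14e-08), a Notch target. After quantile normalization 15 of the 41 rose and 10 fell (1 and 2 of the kinases and ligases), and after median ratio scaling 18 rose and 8 fell.

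**Figure D5:**
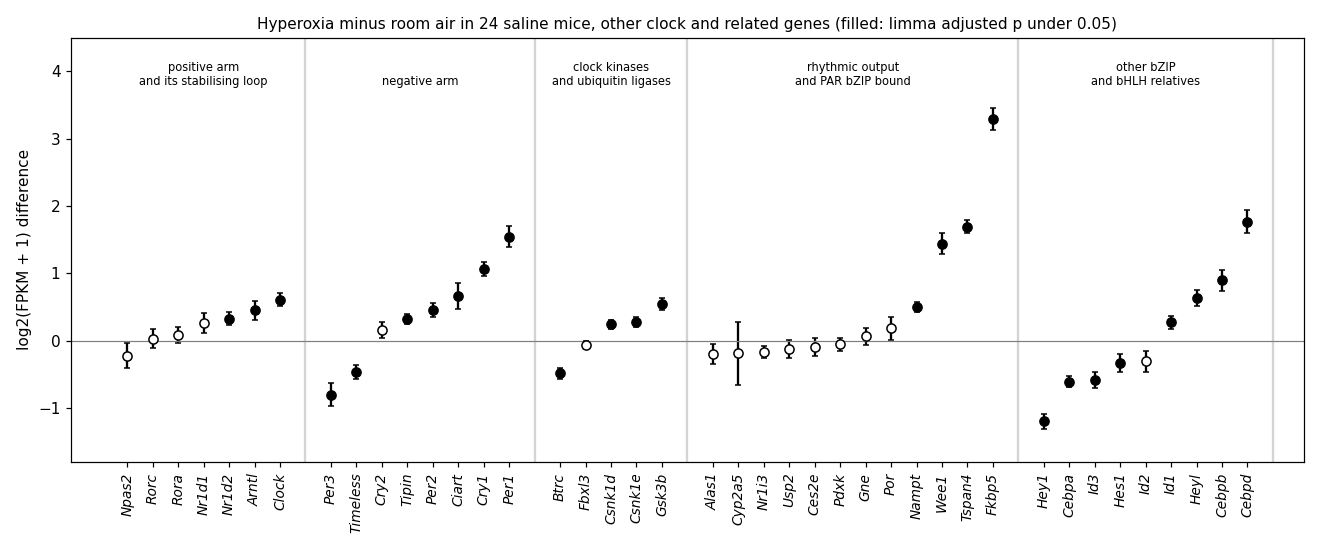
Each point is the difference of log2(FPKM + 1), hyperoxia minus room air, of 1 gene in 24 saline mice, with its standard error, in 5 lists of other clock and related genes, filled where the limma adjusted p-value was under 0.05. Fkbp5 (3.29) is the highest and Hey1 (-1.20) the lowest.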

How the data were processed

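The authors mapped reads to mm10 (GRCm38) with GSNAP (named in the submitters' processing notes) and derived FPKM with Cufflinks, and the deposited table holds 1 FPKM value per gene and mouse; the other versions and the annotation release are not given in the sources used here. The members and lists were chosen with earlier results of these data known. The genes named were the 6 members, the genes of fixed lists, and the 3 genes most correlated with each member. Akap5 was left out for failed estimates. Limma 3.58.1 (R 4.3.3, eBayes with trend) was run on log2(FPKM + 1) with groups of strain, sex, injection and air, over genes that reached an FPKM of 1 in 3 or more of the fitted mice, and Benjamini-Hochberg adjusted p-values under 0.05 were called. All 6 members passed this filter in every comparison. Fits were tested on simulated data. Each library is a separate mouse, and mice of different groups are not paired. Alternatives were a pseudocount of 0.1, no filter, quantile normalization, median ratio scaling, no trend, all 48 mice in 1 fit, leaving out each mouse, and, chosen after seeing the data, leaving out C3HM 1 and C3HM 3. Cell type lists covered lung epithelium, macrophages, neutrophils, red blood cells and other types. Counting error cannot be given, since the absolute depth is unknown.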

Additional observations from a re-analysis of the deposited data

Results flagged for a closer look

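In each gene, 8 groups of 6 mice (strain, injection and air, sexes together) were searched for a mouse far from the rest, 48 groups in all, of which 2 had such a mouse by Dixon's ratio (critical value 0.625), and chance gives about 1 in 20. C57BM 19 in saline hyperoxia had the lowest Dbp, 4.40 FPKM, with a ratio of 0.672. C57BM 15 had the lowest Bhlhe41 of the 6 C57B mice in saline room air, 1.63 FPKM, with a ratio of 0.746. Over 96 pairs of groups, 4 had opposite differences without overlap. In one group the 3 mice of one condition were all above the 3 other mice of the compared condition, and in the other group all below. These differences were not tested. With ATG, the hyperoxia difference of Dbp in C57BM minus that in C57BF was 4.80 on the log2 scale, and that of Tef was 2.21. The hyperoxia difference of Tef in C3HM minus that in C57BM, with ATG, was -1.66. The ATG difference of Bhlhe40 in hyperoxia in C3HM minus that in C3HF was 1.04.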

How the results depend on the processing

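The 5 members lower in males over all lungs were called under each alternative run, and 5 were called in saline room air under each planned setting except without C3HF 25. No paired analysis was possible because each mouse has its own number. For sex in saline room air, 3 to 5 members and 20 to 3640 genes were called with each mouse left out (3640 without C3HM 2), 40 genes with no filter, 2057 with all 48 mice in 1 fit and 30 without C3HM 1 and 3, against 104. Nfil3 there was between -0.028 and 0.30 with each mouse left out, below 0 without C3HM 2 or C3HF 26 (-0.011). For sex in saline hyperoxia, 0 to 1 members and 0 to 428 genes were called with each mouse left out (428 without C57BM 19), 10 genes with no filter, and 1 member and 389 genes with all 48 mice, against 4 genes. Tef there was between -0.16 and 0.28, below 0 without C57BM 20, C57BM 21 or C3HF 33, and Hlf between -0.17 and 0.12, above 0 without C3HM 8 or C3HF 31. For sex by air, 0 to 3 members and 2 to 1270 genes were called with each mouse left out (1270 without C3HM 2, 1051 without C57BM 19), 2 genes with median ratio scaling, and 3 members and 345 genes with all 48 mice, against 6 genes. The spread is shared by more mice in the fit of all 48, and the cause of the other changes was not tested. With each mouse left out, 0 to 1 members were apart by air in saline mice and by strain in saline room air, saline hyperoxia and ATG hyperoxia. For the other comparisons, genes called with each mouse left out were 1723 to 3160 for sex over all lungs. For hyperoxia in saline mice they were 9479 to 10098, where 25 to 28 of the listed clock and related genes were called. Of 1056 values of members by air, injection and strain under alternatives, 3 moved by more than the spread between mice. Of the pairs of members, Tef with Bhlhe40 and Nfil3 with Bhlhe41 also passed after median ratio scaling (r = -0.59 and -0.49) and quantile normalization (-0.50 and -0.52). Tef with Nfil3 also passed after median ratio scaling (-0.49). In the main run, r in room air was -0.0012 for Tef with Bhlhe40, 0.12 for Nfil3 with Bhlhe41 and 0.28 for Tef with Nfil3. In hyperoxia r was -0.69, -0.71 and -0.74. Without C57BM 19, r was -0.27 for Tef with Bhlhe40 and -0.25 for Tef with Nfil3.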
